A study of Mus musculus with 2 samples.

Results

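The serum amyloid A genes Saa1, Saa2 and Saa3 and the regenerating islet-derived 3 genes Reg3b and Reg3g were followed through single cells of mouse distal colon adenomas. They were chosen by name, and all 5 were present among the 21041 genes of the expression matrix. Serum amyloid A proteins are small apolipoproteins of the acute-phase response: the liver releases them into blood during inflammation, and gut epithelium and macrophages make them locally. Saa1 and Saa2 encode the acute-phase forms and Saa3 a form made mainly outside the liver. Reg3b and Reg3g encode secreted C-type lectins that bind bacteria and help to keep them away from the gut surface, and interleukin-22 acting through STAT3 is a known inducer of both. In colitis and colon tumours these genes are commonly used as signs of an epithelial response to bacteria and cytokines.

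The study profiled 2 samples of dissociated distal colon adenoma on the 10x Genomics platform, labelled G0+T and G4+T (codes the labels do not explain), both from 25-week-old mice of the strain Apcmin;LSL-mTERT. Both therefore carry Apcmin, an Apc allele that gives intestinal adenomas, and LSL-mTERT, a telomerase reverse transcriptase transgene behind a lox-stop-lox cassette; the labels name no Cre driver and do not say how many mice or adenomas went into a sample. The deposited annotation divides the 14097 cells into CIN_high (6189 cells) and CIN_low (7908 cells), CIN standing for chromosomal instability in the series title. These classes coincide with the 2 barcode suffixes, so each class is 1 library. Every cell name begins with G0, whichever library it is from, so neither class was assigned to G0+T or to G4+T, and the comparison is of the CIN_high library with the CIN_low library. With 1 library per class there is no replicate check and no test of the conditions. The total was 51868113 UMIs (unique molecular identifiers, counts of captured RNA molecules) for CIN_high and 74733715 for CIN_low, with medians of 6448 and 7154 per cell, and 11 barcodes occurred in both. Below, where a pair of values stands together without further words, the first is the CIN_high library and the second the CIN_low library.

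The sequences before the RefSeq start sites are shown because most enterocytes with Saa2 also had Saa1, and most with Reg3b also had Reg3g. Saa1 lies on chromosome 7 at 46740497 to 46742980 (minus strand), Saa2 at 46751790 to 46754313 (plus strand) and Saa3 at 46711998 to 46715700 (minus strand). Reg3b lies on chromosome 6 at 78370657 to 78373466 (plus strand) and Reg3g at 78466269 to 78468872 (minus strand). All 5 are protein-coding in the GENCODE annotation of GRCm38, which these positions follow. The stretches come from the RefSeq promoter table for GRCm38.p6, are written 5′ to 3′ on the gene's strand, and are confined to bases outside annotated exons. The RefSeq and GENCODE starts differ for some of the genes, and the Reg3b stretch, though before the RefSeq start, lies inside the GENCODE span of the gene. Capitals mark matches to 4 short motifs, searched on both strands: TTGCNNAA for C/EBP factors, TTCNNNGAA for STAT factors, GGGA and CC with any 4 bases between them for NF-kB, and TATAAA, the TATA box.
Saa1, chr7:46742981-46743230: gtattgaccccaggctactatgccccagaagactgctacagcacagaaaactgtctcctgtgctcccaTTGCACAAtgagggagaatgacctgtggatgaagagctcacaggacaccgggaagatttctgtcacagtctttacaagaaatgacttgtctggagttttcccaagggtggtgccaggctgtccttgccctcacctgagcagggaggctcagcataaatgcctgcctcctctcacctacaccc
Saa2, chr7:46751583-46751789: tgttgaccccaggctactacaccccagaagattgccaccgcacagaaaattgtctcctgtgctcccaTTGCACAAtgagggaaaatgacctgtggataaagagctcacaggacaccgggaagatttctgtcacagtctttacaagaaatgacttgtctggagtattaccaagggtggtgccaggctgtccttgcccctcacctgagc
Saa3, chr7:46715701-46715926: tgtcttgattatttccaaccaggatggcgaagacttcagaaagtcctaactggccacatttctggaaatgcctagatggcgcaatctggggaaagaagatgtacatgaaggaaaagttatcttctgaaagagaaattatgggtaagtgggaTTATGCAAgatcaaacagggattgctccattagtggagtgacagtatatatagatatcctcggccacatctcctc
Reg3b, chr6:78370707-78370860: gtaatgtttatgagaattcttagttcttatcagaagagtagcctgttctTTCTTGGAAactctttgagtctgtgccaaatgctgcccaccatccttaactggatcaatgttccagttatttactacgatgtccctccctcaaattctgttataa
Reg3g, chr6:78468875-78469124: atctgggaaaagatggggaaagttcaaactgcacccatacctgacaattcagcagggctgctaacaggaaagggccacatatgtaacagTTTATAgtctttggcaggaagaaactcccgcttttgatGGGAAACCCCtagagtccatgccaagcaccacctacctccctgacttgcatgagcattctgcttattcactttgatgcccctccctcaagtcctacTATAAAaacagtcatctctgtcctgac
The C/EBP letters occurred before the RefSeq start of all 3 serum amyloid genes. They read TTGCACAA in Saa1, from -182 to -175 relative to the RefSeq start site, the same TTGCACAA in Saa2, from -183 to -176, and TTATGCAA in Saa3, from -99 to -92, where the match is on the opposite strand. Of 27025 promoter windows of 250 bases, 9.55% held these letters. Reg3b held a STAT match, TTCTTGGAA from -129 to -121 (7.18% of all windows), and Reg3g an NF-kB match, GGGAAACCCC from -123 to -114 (17.3% of all windows). TATA letters were in the 250-base windows of Reg3b, where they run past the end of the stretch shown, and of Reg3g, from -27 to -22 and on the opposite strand from -161 to -156 (12.97% of all windows). These are matches of letters in a window and not measured binding.

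Saa1 and Saa2 are close copies, which bears on how far their counts can be separated. Their 250-base upstream windows were identical at 238 of 249 aligned bases (95.6%), and their transcripts at 94.4% of aligned bases. Of all 50-base stretches of the Saa1 transcript, 9.11% also occurred in Saa2, so reads from those stretches cannot be placed on 1 of the 2 genes. This share sets no upper limit on misplaced reads. Enterocytes had 2422 and 2929 Saa1 UMIs but only 38 and 34 of Saa2, and the part of misplaced Saa1 reads among the latter was not tested. Saa1 and Saa3 transcripts were 73.1% identical and Reg3b and Reg3g transcripts 77.4%, and neither pair shared a 50-base stretch.

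Saa1 RNA lay almost wholly in enterocytes, the absorptive cells of the colon surface. Levels are given as UMIs of a gene per 10000 UMIs of all genes, summed over the cells of a class, and the 95% intervals beside them cover the counting of UMIs only. In the CIN_high library 2422 of the 2457 epithelial Saa1 UMIs (98.6%) came from 107 enterocytes, 8.13% of the epithelial cells. In the CIN_low library it was 2929 of 3129 (93.6%) from 98 enterocytes, 5.68% of the epithelial cells. The enterocyte level was 18.1 (17.4 to 18.9) and 17.5 (16.9 to 18.2), a ratio of 1.03 (0.979 to 1.09). The 8 enterocyte markers found in the matrix summed to 16.6 and 15.1 in these cells, against 0.337 and 0.268 in cancer cells 1 and 1.45 and 3.85 in stem cells 1.

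Within the enterocytes Saa1 was uneven. It was detected in 61 of 107 cells (57.01%) and in 52 of 98 (53.1%), and the median cell had a level of 1.37 and 0.441 respectively. The highest cells held 359 and 471 UMIs. In the CIN_high library 6 cells held 50% of the enterocyte UMIs, and in the CIN_low library 5 cells did. Outside enterocytes the levels were low, between 0.00497 in stem cells 1 and 0.0439 in secretory cells of the CIN_high library among subtypes of 20 or more cells with a UMI. Neighbours in the order of these levels had overlapping counting intervals. In the CIN_low library the secretory level was 0.478, from 2 cells, and the complement+ stem cell level 0.747, where 1 cell held 144 of 147 UMIs and the level without it was 0.0155. In T and NK cells 2 Saa1 UMIs were counted in each library. After thinning to 2000 UMIs, Saa1 was found in 3.43% and 2.33% of epithelial cells, while T and NK cells had it in 0 of 179 cells and 0.309% of 324 cells.

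Saa2 followed the same cells at far fewer molecules. There were 40 epithelial UMIs in each library, of which 38 and 34 came from enterocytes, in 18 of 107 (16.8%) and 16 of 98 cells (16.3%). The enterocyte level was 0.284 (0.201 to 0.390) and 0.204 (0.141 to 0.284). The ratio of 1.40 had an interval of 0.856 to 2.29, so a difference was not detectable at this depth. No T or NK cell had a Saa2 UMI, which allows up to 1.28% of 234 cells and 0.725% of 414 cells to have one at this depth and sets no limit on cells expressing the gene.

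**Figure D1:**
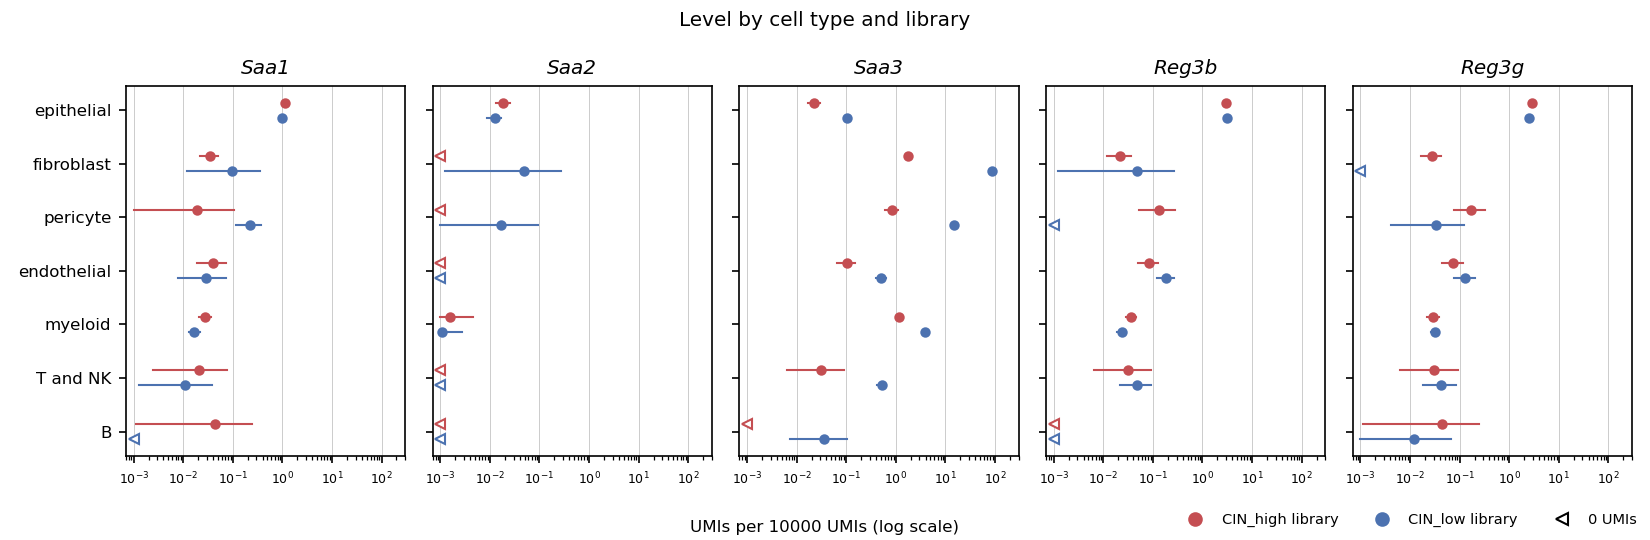
Level of each gene by cell type, in UMIs per 10000 UMIs on a log axis, with exact Poisson 95% intervals cut at the left end of the axis; red is the CIN_high library, blue the CIN_low library, and open triangles mark 0 UMIs. Saa1, Reg3b and Reg3g are highest in epithelial cells in both libraries, and Saa3 is highest in fibroblasts, at levels of 1.79 (red) and 85.5 (blue).

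Saa3 had another distribution, in myeloid cells and stroma. Myeloid cells held 61.6% and 82.3% of the Saa3 UMIs, and fibroblasts held 35.0% and 9.84%. The myeloid level was 1.17 (1.12 to 1.22) and 3.93 (3.87 to 4.00), detected in 378 of 2930 cells (12.9%) and 1019 of 5348 cells (19.1%). It was 3.36-fold lower in the CIN_high library (3.21 to 3.51). Of 9772 genes measured in myeloid cells, that is, seen in no fewer than 2% of the cells of one library, 3.14% were lower and 4.19% higher in the CIN_high library by 1.5-fold or more, the fold taken as a call throughout. The median measured myeloid gene had a log2 ratio of 0.14, and relative to that median the Saa3 ratio of 0.298 became 0.271. Summed neutrophil markers were at 252 and 579 in the myeloid cells, macrophage markers at 207 and 160 and monocyte markers at 40.6 and 38.6, with all 8 of each detected in both libraries. The part of this makeup in the Saa3 ratio of all myeloid cells was not tested.

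Saa3 was also read within clusters of myeloid cells, made without the 5 genes and named only where at least 3 fixed markers of a class were among the 10 leading genes. In monocyte-like cells (led by Chil3, Vcan and Ccr2) the level was 3.08 and 6.56, 2.13-fold lower in the CIN_high library (2.01 to 2.26). In macrophage-like cells (led by Vcam1, Mrc1 and Ccl8) it was 0.347 and 2.70, 7.77-fold lower (6.85 to 8.84). In both of these classes the CIN_high library was the lower. An unnamed cluster led by the cytokine genes Ccl24, Il23a, Tnf, Inhba and Il6 had 2.09 and 11.8, 5.62-fold lower (4.91 to 6.46). Neutrophil-like cells had 0.421 and 0.524, a ratio of 0.802 (0.612 to 1.04), which does not exclude equal levels. Without the highest cell of each library that ratio was 0.543, and in the neutrophil-like cluster of a finer clustering it was 1.64, so its direction was not settled. At the finer clustering the monocyte-like ratio was 0.647 and the macrophage-like ratio 0.0740. That macrophage-like cluster was led by Mgl2, Pxdc1 and C1qb. Vcam1, Mrc1 and Ccl8 were there among the leading genes of an unnamed cluster, with a ratio of 0.124. Dendritic-like cells had 1 and 12 Saa3 UMIs. A cluster of 74 and 2 cells led by Igfbp5, Dcn and Col3a1, genes of fibroblasts, lay within the myeloid annotation and held 26 and 1 of its Saa3 UMIs.

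**Figure D2:**
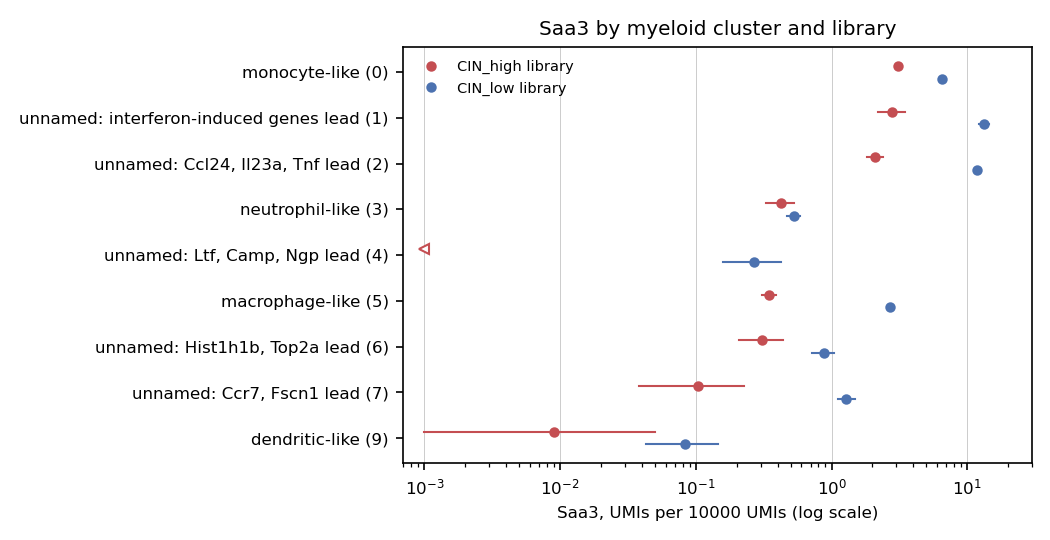
Saa3 level in UMIs per 10000 UMIs (log axis) by cluster of the cells annotated as myeloid, for clusters with at least 20 cells in each library, with exact Poisson 95% intervals cut at the left end of the axis; red is the CIN_high library, blue the CIN_low library, the open triangle marks 0 UMIs, and the numbers are cluster numbers. The blue point lies to the right of the red point in every cluster plotted, and the 2 lie closest in neutrophil-like cells (0.421 and 0.524).

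In fibroblasts Saa3 was detected in 87 of 966 cells (9.01%) of the CIN_high library, at a level of 1.79 (1.69 to 1.89), where 6 cells held 50% of the 1255 UMIs. The CIN_low library had only 21 fibroblasts, of which 11 (52.4%) had Saa3, with 1772 UMIs and a level of 85.5 (81.5 to 89.5). The highest of them held 377 UMIs, and the level without it was 73.7. No ratio is given for a class with fewer than 50 cells in a library. Fibroblast markers summed to 126 and 150 in these cells, against 0.597 and 0.780 in endothelial cells, and neutrophil markers to 12.2 and 55.0. In pericytes, the contractile cells around small vessels, pericyte markers summed to 121 and 144, against 5.59 and 12.9 in fibroblasts, and the Saa3 level was 0.832 (83 cells) and 15.2 (58 cells), 18.3-fold lower in the CIN_high library (13.5 to 25.4), where 18.7% of 10748 measured genes were lower and 25.2% higher. One pericyte of the CIN_low library held 432 of the 907 UMIs, and without the highest cell of each library the levels were 0.270 and 8.21. Fibroblast markers summed to 42.6 and 75.4 in these pericytes, and their part in the difference was not tested.

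Endothelial cells had Saa3 levels of 0.102 and 0.511, 5.01-fold lower in the CIN_high library (3.16 to 8.17), where 18.0% of 11114 measured genes were lower and 9.12% higher. One endothelial cell of the CIN_low library held 50 of the 72 UMIs, and without the highest cell of each library the ratio was 0.349. In the CIN_low library the endothelial interval (0.400 to 0.643) overlapped that of T and NK cells (0.427 to 0.642). The part of RNA from other cells in the endothelial counts was not tested. T and NK cells had 3 UMIs in 234 cells and 98 UMIs in 414 cells, 54 of the latter in 1 cell, a ratio of 0.0589 (0.0119 to 0.177), with 14.7% of 9909 measured genes lower and 11.1% higher. T and NK markers summed to 31.2 and 35.7 in these cells, against 1.56 and 1.55 in myeloid cells. Macrophage markers summed to 6.58 and 18.9 in these T and NK cells and neutrophil markers to 26.0 and 60.1, with the macrophage marker Adgre1 alone at 0 in the CIN_high library, and the part of RNA from other cells in these Saa3 counts was not tested.

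In epithelial cells Saa3 had 49 UMIs in 28 of 1316 cells and 337 UMIs in 120 of 1725 cells. With each cell thinned to 2000 UMIs, 0.390% and 1.11% of epithelial cells had a Saa3 UMI, below the 1.12% and 3.70% of T and NK cells, whose median depths were 3442 and 3666 UMIs against 14033 and 15364 in epithelial cells before thinning. Shares this low are not taken here as a sign of expression. The T and NK cells carried macrophage and neutrophil markers, as given above, so they set no clean floor. The source of the epithelial Saa3 UMIs was not tested, and the epithelial ratio of 0.216 (0.157 to 0.292) describes UMIs found in these barcodes. The epithelial subtype with the highest Saa3 among those of 20 or more cells was the complement+ stem cells, at 0.147 and 0.747, where 1 cell of the CIN_low library held 87 of 147 UMIs. Those cells also carried all 8 macrophage markers, summed to 87.4 and 65.6, against 1.08 and 1.31 in cancer cells 1, and their part in the Saa3 counts was not tested. In proliferating cells 46 of the 71 UMIs of the CIN_low library lay in 1 cell.

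Reg3b RNA was epithelial, and enterocytes had most of it. Epithelial cells held 98.2% and 98.8% of all Reg3b UMIs in the CIN_high and CIN_low libraries, and enterocytes held 53.2% and 62.4% of the epithelial ones. The enterocyte level was 25.4 (24.5 to 26.2) and 37.7 (36.8 to 38.7), in 49 of 107 cells (45.8%) and 42 of 98 cells (42.9%). One CIN_low enterocyte held 2041 of the 6302 UMIs. The ratio was 0.673 (0.645 to 0.701) with all cells, 0.842 without the highest cell of each library and 1.04 as a ratio of means over cells, so the direction differs between these ways of weighting the cells.

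The other epithelial classes carried Reg3b at lower levels. In the CIN_high library the order was secretory cells (2.83), proliferating cells (2.01), stem cells 1 (1.64), Igfbp+ cells (1.31), complement+ stem cells (1.24) and cancer cells 1 (1.19); from stem cells 1 down to cancer cells 1 the intervals of neighbours overlapped. In the CIN_low library it was complement+ stem cells (5.78, or 1.70 without 1 cell with 811 UMIs), stem cells 1 (1.51), proliferating cells (1.48), S100a8/s100a9+ cells (1.14), secretory cells (0.885) and cancer cells 1 (0.556). There the intervals of neighbours overlapped from stem cells 1 down to secretory cells. The p57+ cancer cells had 0 Reg3b UMIs in 77 cells of the CIN_high library, where the limit of 3 counts allows up to 3.90% of cells to have a UMI at this depth and says nothing of cells expressing the gene, and 5 UMIs in 211 cells of the CIN_low library. T and NK cells had 3 and 9 Reg3b UMIs. After thinning to 2000 UMIs, Reg3b was found in 12.2% and 8.80% of epithelial cells, while T and NK cells had it in 1.12% and 1.23%.

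In cancer cells 1, the largest epithelial subtype, Reg3b passed 1.5-fold. They had 956 UMIs in 549 cells of the CIN_high library, a level of 1.19 (1.12 to 1.27), and 658 UMIs in 710 cells of the CIN_low library, a level of 0.556 (0.514 to 0.6002). The level was 2.14-fold higher in the CIN_high library (1.94 to 2.37), where 5.73% of 12836 measured genes were higher and 7.31% lower. It was 2.03-fold higher as a mean over cells and 2.22-fold higher without the highest cell of each library. Reg3b was detected in 98 of the CIN_high cells (17.9%) and 88 of the CIN_low cells (12.4%), and in 13.3% and 7.27% after thinning to 5000 UMIs. In stem cells 1, where 8.16% of 12887 measured genes were higher and 10.9% lower, the ratio was 1.08 (0.991 to 1.19). In proliferating cells, where 9.05% of 13479 measured genes were higher and 11.1% lower, it was 1.36 (1.22 to 1.51), 1.59 as a ratio of means over cells, which passes 1.5-fold, and 0.951 without the highest cell of each library, so that its direction rests on 1 cell in each.

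Reg3g was the more widely detected of the 2 lectin genes among epithelial cells, with a UMI in 554 of 1316 cells (42.1%) and 598 of 1725 cells (34.7%). After thinning to 5000 UMIs these shares were 31.3% and 23.4%. At 2000 UMIs they were 19.0% and 14.9%, against 1.68% and 0.926% of T and NK cells. Secretory cells, where goblet markers summed to 336 and 247 against 1.29 and 1.78 in cancer cells 1, had the highest level of the CIN_high library among subtypes of 20 or more cells, 19.6 (18.7 to 20.5) in 54 cells, and 5.69 (5.15 to 6.27) in 48 cells of the CIN_low library. Single cells held 488 of 1785 and 186 of 405 of those UMIs, and without them the levels were 14.9 and 3.25. The shares of secretory cells with Reg3g were 51.9% and 50.0%.

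Enterocytes had Reg3g levels of 8.17 (7.69 to 8.67) and 14.7 (14.2 to 15.3), 1.80-fold lower in the CIN_high library (1.68 to 1.94), where 17.1% of 11047 measured genes were lower and 11.7% higher. As a ratio of means over cells the value was 0.867, which does not pass 1.5-fold. Cancer cells 1 had 1.74 and 1.24, a ratio of 1.40 (1.30 to 1.51) that became 1.52, past 1.5-fold, as a ratio of means over cells. Stem cells 1 had 1.60 and 2.18, a ratio of 0.735 (0.676 to 0.798). Proliferating cells had 2.35 and 2.398, a ratio of 0.978 (0.892 to 1.07). The p57+ cancer cells again had the lowest level, 0.107 and 0.0680. Among the S100a8/s100a9+ cells 1 of the 8 CIN_high cells held 250 of 262 Reg3g UMIs.

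**Figure D3:**
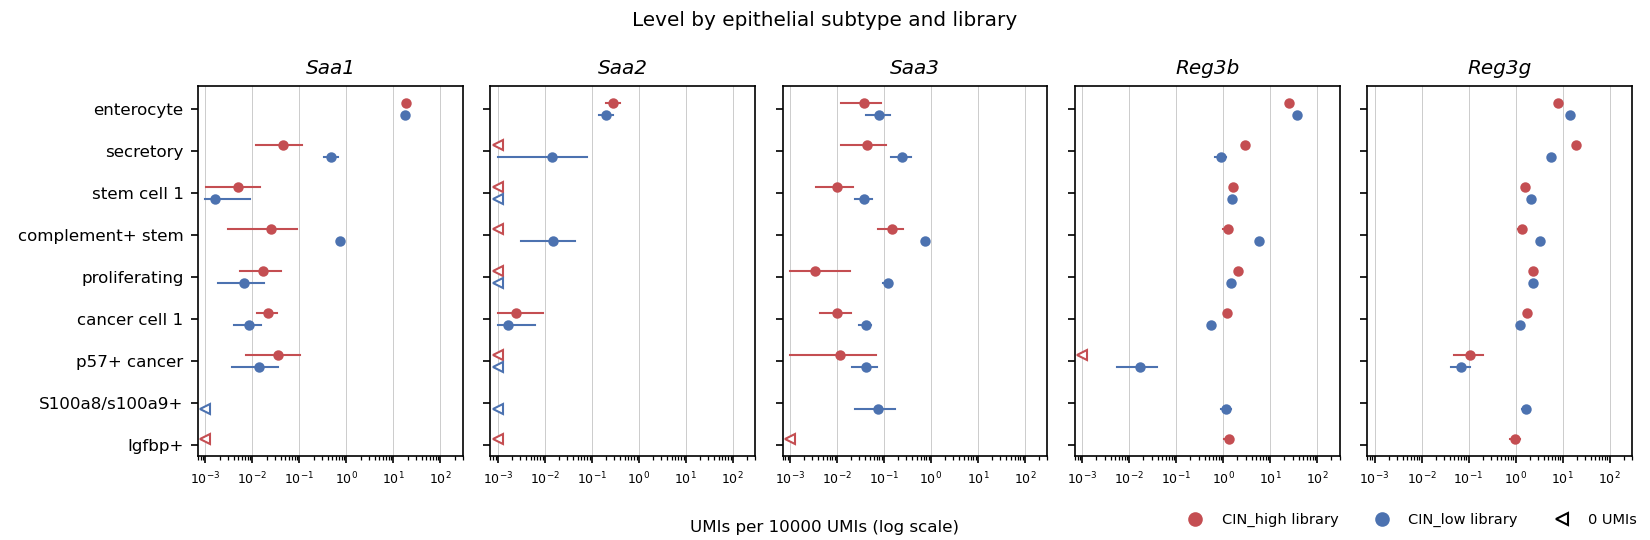
Level of each gene by epithelial subtype, in UMIs per 10000 UMIs on a log axis, for subtypes with at least 20 cells in a library, with exact Poisson 95% intervals cut at the left end of the axis; red is the CIN_high library, blue the CIN_low library, and open triangles mark 0 UMIs. Saa1 and Saa2 stand out in enterocytes (Saa1 18.1 and 17.5), whereas Reg3b and Reg3g have UMIs in most subtypes and are lowest in the p57+ cancer cells.

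The 2 lectin genes were mostly found in the same enterocytes, and Saa2 mostly in enterocytes that had Saa1, whereas the share of enterocytes with Reg3b was close to equal with and without Saa1. With enterocytes thinned to 5000 UMIs, 33 of 37 cells with Reg3b also had Reg3g in the CIN_high library, against 7 of 51 cells without Reg3b, and 29 of 30 against 4 of 44 in the CIN_low library. At that depth all 8 and all 5 enterocytes with Saa2 also had Saa1, against 35 of 80 and 31 of 69 without Saa2. Before thinning 17 of 18 and 16 of 16 enterocytes with Saa2 had Saa1. The transcripts of these 2 genes are close copies, and the part of misplaced reads in this pairing was not tested. In the CIN_high library Reg3b was found in 18 of 43 enterocytes with Saa1 and in 19 of 45 without it. In the other library it was found in 15 of 36 and 15 of 38. Across all enterocytes of a library the Spearman correlation of the unthinned levels was 0.900 (107 cells) and 0.881 (98 cells) for Reg3b with Reg3g, 0.551 and 0.619 for Saa1 with Saa2, and 0.088 and 0.080 for Saa1 with Reg3b. The cells of a library share its capture and sequencing and differ in depth, so these values are descriptions. Outside enterocytes the pairing of the lectin genes was also seen, with Reg3g in 130 of 175 epithelial cells that had Reg3b and in 208 of 944 that did not (CIN_high), and in 121 of 181 and 225 of 1368 (CIN_low).

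**Figure D4:**
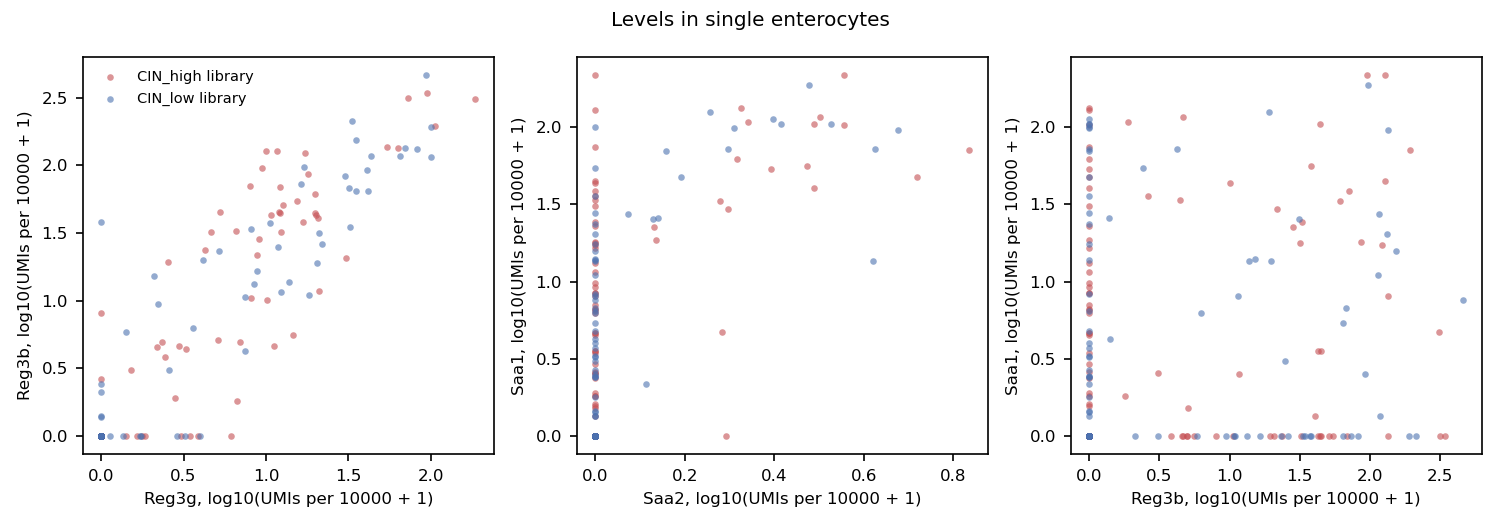
Levels in single enterocytes as log10(UMIs per 10000 + 1), 1 point per cell, red for the 107 cells of the CIN_high library and blue for the 98 cells of the CIN_low library. Reg3b and Reg3g lie along a diagonal (Spearman 0.900 and 0.881), most cells with Saa2 also have Saa1 (17 of 18 red and 16 of 16 blue cells) though a few lie at low Saa1, and Saa1 and Reg3b show little relation (0.088 and 0.080).

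Over all epithelial cells together, 1 of the 4 measured genes passed the 1.5-fold call, Saa3, which was lower in the CIN_high library. There 6.83% of 13304 measured genes were lower and 4.24% higher. The source of the epithelial Saa3 UMIs was not tested, so this call describes UMIs found in these barcodes and is not taken as a sign of expression. Saa2, in fewer than 2% of cells, was not among the measured genes, and its ratio of 1.49 had an interval of 0.934 to 2.36. The Saa1 level was 1.14 (1.09 to 1.18) and 0.973 (0.939 to 1.01), a ratio of 1.17 (1.11 to 1.23). Reg3b had 2.94 (2.87 to 3.02) and 3.14 (3.08 to 3.20), a ratio of 0.938 (0.909 to 0.968), and Reg3g 2.94 (2.87 to 3.02) and 2.47 (2.41 to 2.52), a ratio of 1.19 (1.16 to 1.23). The ratio of means over cells was 1.61 for Saa1, 1.44 for Reg3b and 1.45 for Reg3g. Reg3b thus changed direction between the 2 ways of averaging. With the subtypes given the same weights in both libraries the Saa1 ratio was 1.01, the Reg3b ratio 0.825 and the Reg3g ratio 1.13. Without the 1% of cells highest in each gene the ratios were 2.13 for Saa1 and 1.61 for Reg3b. Saa1 was found in 6.53% and 3.94% of epithelial cells, so this cut takes a larger share of the CIN_low cells with Saa1.

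**Figure D5:**
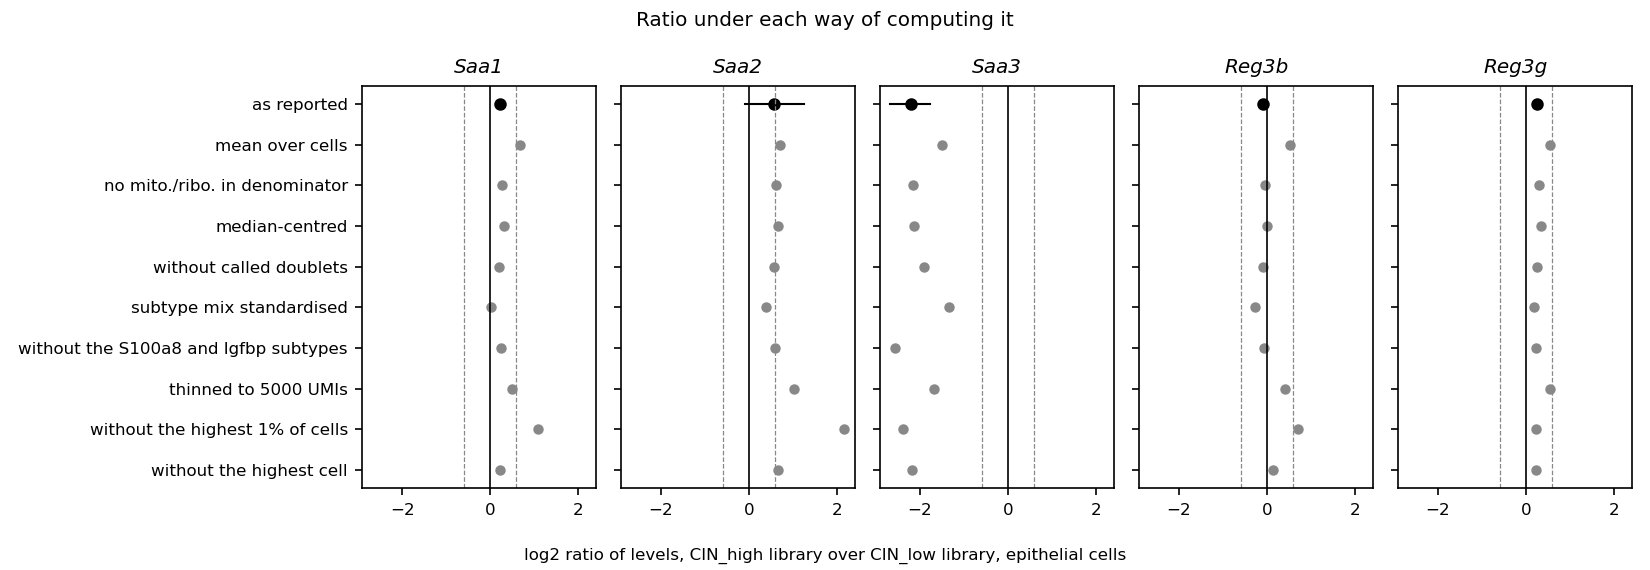
The log2 ratio of the epithelial level in the CIN_high library over the CIN_low library for each gene (horizontal axis) under each way of computing it (rows); the black point is the value as reported with its counting interval, grey points are alternatives, the solid line marks equal levels and the dashed lines 1.5-fold. The Saa3 points, from epithelial UMIs whose source was not tested, all lie left of the lower dashed line. The Reg3b points fall on both sides of the solid line, from a ratio of 0.825 to 1.61.

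Relatives, inducers and receptors of these genes were read from lists in the epithelial cells. Of all 13304 genes measured there, 4.24% were higher and 6.83% lower in the CIN_high library by 1.5-fold or more. Both measured relatives were higher in the CIN_high library over all epithelial cells: Reg4, a secreted lectin of goblet and deep crypt cells, at 0.892 and 0.380 (2.35-fold, 2.18 to 2.52), and Reg1 at 0.0725 and 0.0336 (2.16-fold, 1.68 to 2.78). This did not hold in every subtype: in proliferating cells Reg1 was 2.21-fold lower (11 and 49 UMIs), and in stem cells 1 the Reg4 ratio was 0.975 and the Reg1 ratio 1.82, or 1.30 without the highest cell of each library. Secretory cells were 4.10% and 2.78% of the epithelial cells, and the part of that share in the Reg4 ratio was not tested. Of 8 measured receptor genes 1 was higher, P2rx7 (1.92-fold), and 3 were lower. The lower ones were the formyl peptide receptors Fpr1 (4.14-fold) and Fpr2 (2.55-fold), and Tlr2 (1.63-fold). Serum amyloid A attracts phagocytes through Fpr2. Of 7 measured inducing cytokines none was higher and 3 were lower, Il1b at 1.24 and 2.48 (1.997-fold, 1.91 to 2.09), Osm (1.92-fold) and Il1a (1.86-fold). In cancer cells 1 alone, looked at after the values were seen, 2 of 7 measured inducing cytokines were higher and 2 lower. Of 12836 genes measured in cancer cells 1, 5.73% were higher and 7.31% lower. The lower ones were Il1a (ratio 0.627) and Il1b (ratio 0.661). Lif was 1.59-fold higher. Osm was 2.06-fold higher but 2.98-fold lower without the highest cell of each library, 1 CIN_high cell holding 30 of 35 UMIs. Of 14 cytokine receptors measured over all epithelial cells Il17re (1.83-fold) and Osmr (1.78-fold) were higher and Il1rap (2.11-fold) was lower. None of the 19 signal transducers and transcription factors of the acute phase, Stat3 and Cebpb among them, passed 1.5-fold in either direction. The list medians ran from -0.28 for the inducing cytokines to 1.17 for the relatives on the log2 scale, beside -0.08 over all measured genes. Neutrophil markers summed to 6.90 and 20.3 in these epithelial cells and macrophage markers to 5.12 and 5.61, all detected in both libraries. Their part in the lower Fpr1, Fpr2, Tlr2, Il1b, Il1a, Osm and Il1rap was not tested.

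Among 20 other measured epithelial host defence genes 3 were higher and 3 lower in the CIN_high library, with a list median of -0.10. Of all 13304 genes measured in epithelial cells, 4.24% were higher and 6.83% lower. Sprr2a3, a small proline-rich protein, was 2.27-fold higher (2.18 to 2.36), Ang4, a secreted antimicrobial ribonuclease, 2.19-fold (2.06 to 2.32), and Lbp, which binds lipopolysaccharide, 1.52-fold (1.19 to 1.93). Cd14, its partner receptor, was 1.77-fold lower, Nlrp6 1.57-fold and the protease inhibitor Slpi 1.52-fold. Cd14 and Slpi were also lower in myeloid cells (ratios of 0.577 and 0.399). The part of the neutrophil and macrophage markers given above in the lower Cd14 and Slpi was not tested.

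Among the inducing cytokines, Il22, the cytokine named above as an inducer of both lectin genes, was detected mainly in T and NK cells, at levels of 0.269 (26 UMIs in 234 cells) and 1.37 (255 UMIs in 414 cells), a ratio of 0.196. These UMIs came from 5 cells in each library (2.14% and 1.21% of the T and NK cells), and 1 CIN_low cell held 242 of the 255. Without the highest cell of each library the levels were 0.157 (15 UMIs) and 0.0701 (13 UMIs), a ratio of 2.24 (0.995 to 5.12), so the direction rests on 1 cell. In epithelial cells Il22 had 0 and 34 UMIs, 33 of the latter in the complement+ stem cells. In myeloid cells 5 of 7 measured inducing cytokines were lower in the CIN_high library and none higher: Lif (2.50-fold), Il6 (2.06-fold), Il1a (1.89-fold), Osm (1.82-fold) and Tnf (1.59-fold), where 3.14% of all measured myeloid genes were lower and 4.19% higher. Neutrophil markers, at 252 and 579 in these myeloid cells, moved the same way, and their part in these ratios was not tested. Il22 and these myeloid genes were picked out after their values were seen.

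Across 28 profiles (cell types, with epithelial cells split by subtype, in each library, of at least 20 cells) the genes most like each member were named from 12384 genes by Pearson correlation of log2(level + 0.01). Saa1 was nearest to Atp12a (0.888), Clca4a (0.848), Tgm3 (0.845), Gsdmc4 (0.834) and Sult1b1 (0.820), and Saa2 to Clca4a (0.8803), Tgm3 (0.859), Gsdmc4 (0.845), Atp12a (0.845) and Ces2c (0.823), so that 4 genes were shared by both lists. Saa3 was nearest to Mmp13 (0.899), a collagenase, Il1rl2 (0.8804), Catip (0.870), Hp (0.857), the acute-phase protein haptoglobin, and Sod2 (0.854). Reg3b was nearest to Mgam2-ps (0.935), Lgals4 (0.929), Fgfbp1 (0.925), Ifi27l2b (0.924) and Ckmt1 (0.919). Reg3g was nearest to Prss32 (0.970), Muc13 (0.969), Pigr (0.969), the carrier of secreted IgA, Lgals4 (0.963) and Fam83e (0.963). Between members the correlation was 0.921 for Saa1 with Saa2, 0.918 for Reg3b with Reg3g, 0.461 for Saa1 with Reg3b and -0.466 for Saa3 with Reg3g. The profiles share 2 libraries, and epithelial classes make up many of them, so these values describe likeness only.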

How the data were processed

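Single-cell RNA of 2 distal colon adenoma samples was read on the 10x Genomics platform. Per the submitters' processing notes, reads were handled with Cell Ranger 2.1.1 and Seurat on the mm10 build; aligner settings and cell filters: not given in the sources used here. The authors deposited the matrix as natural log values, ln(1 + UMIs per 10000 UMIs of the cell), as read from the values themselves, since every cell summed to 10000 after the log was undone. UMIs were recovered from it as whole multiples, within 0.01 for 100% of 34170704 nonzero values. Cell types, epithelial subtypes and CIN classes are the authors' deposited annotation.

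Cells ranged from 801 to 109676 UMIs, and none was removed. Levels are summed UMIs per 10000, with exact Poisson 95% intervals; ratios carry exact conditional binomial intervals and were computed only with at least 50 cells per library and more than 3 UMIs in one of them; shares carry exact Clopper-Pearson intervals. Intervals and the limit that 3 counts set cover counting error only. No test between the classes was made, since each is 1 library and it is not known which sample it is. Named genes were the 5 members, every measured listed gene past 1.5-fold in epithelial cells, and the 5 genes most correlated with each member among those with at least 200 UMIs, leaving out predicted, mitochondrial and ribosomal protein genes. Other genes are marked in the text or named as leading a cluster. The members, the 6 gene lists and the 19 marker lists were chosen with earlier results of these data known. Scrublet, run in each library at an expected rate of 6%, called 142 and 249 cells (2.29% and 3.15%), which were kept except in an alternative. Shares were also taken after thinning cells to 2000 or 5000 UMIs; at 5000, 109 and 102 shallower epithelial cells were left out. Myeloid cells were clustered without the members (2000 variable genes, 30 components, 15 neighbours, Leiden resolution 0.5 or 1.0). The ratio and interval code was checked on simulated data. Software was Python 3.11.15, numpy 2.4.6, pandas 2.3.3, SciPy 1.17.1, Scanpy 1.11.5, Biopython 1.88 and matplotlib 3.10.9.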

Additional observations from a re-analysis of the deposited data

Results flagged for a closer look

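The Reg3b and Reg3g ratios lay above 1 in cancer cells 1 and below 1 in enterocytes. The Reg3b level of the CIN_high library over the CIN_low library was 2.14 in cancer cells 1 and 0.673 in enterocytes, and the Reg3g ratio was 1.40 and 0.554. Of these 4 ratios, Reg3b in enterocytes and Reg3g in cancer cells 1 did not pass 1.5-fold. The difference between the subtypes was not tested, because each class is 1 library. As means over cells the enterocyte ratios were 1.04 for Reg3b and 0.867 for Reg3g, so that Reg3b then had the same direction in both subtypes.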

How the results depend on the processing

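Epithelial ratios, CIN_high over CIN_low, moved with the way cells were weighted, and the cause was not tested. As means over cells they were 1.61 for Saa1, 0.355 for Saa3, 1.44 for Reg3b and 1.45 for Reg3g. With the subtype mix standardised they were 1.01 for Saa1, 0.392 for Saa3, 0.825 for Reg3b and 1.13 for Reg3g. After thinning to 5000 UMIs they were 1.42 for Saa1, 0.310 for Saa3, 1.33 for Reg3b and 1.47 for Reg3g. Relative to the median gene they were 1.23 for Saa1, 0.992 for Reg3b and 1.26 for Reg3g. Without the 1% of cells highest in a gene they were 2.13 for Saa1, 4.45 for Saa2 and 1.61 for Reg3b. Saa2 was found in only 1.52% and 1.16% of epithelial cells. That cut therefore takes out most of its cells, and the 4.45 rests on the few left. Saa1 was found in 6.53% and 3.94%, so the cut takes a larger share of the CIN_low cells with Saa1. Without the highest cell of each library, an alternative chosen after seeing the data, Reg3b was 1.09. Reg3b thus turned direction in 4 of its 9 alternatives, while the epithelial ratios of the other 4 genes kept theirs. Saa3 stayed past 1.5-fold in all 9, though the source of its epithelial UMIs was not tested. Saa3 also stayed lower in every alternative run in endothelial cells (0.0648 without called doublets, 0.349 without the highest cell), pericytes (0.0329 without the highest cell), myeloid cells (0.344 as means over cells, 0.271 relative to the median gene) and T and NK cells. Il22 in T and NK cells turned from 0.196 to 2.24 without the highest cell of each library. At 2-fold in place of 1.5-fold, 4 listed genes were higher and 3 lower in epithelial cells, against 8 and 10. At 1.5-fold 4.24% of all 13304 measured genes were higher and 6.83% lower. That share was not computed at 2-fold, so the 2-fold counts are not read as a result about the lists. Saa2, with 40 epithelial UMIs per library, is limited by depth. Its epithelial ratio was 1.49 as reported and passed 1.5-fold in 7 of 9 alternatives, which ran from 1.30 to 4.45. The epithelial Saa1 ratio passed 1.5-fold in 2 of 9. No paired analysis was possible because each class is 1 library and no test was made.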
